A study of Mus musculus with 3 samples.

Results

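The cells described here are 75 hair cell-like cells without prestin from cochlear organoids on day 25 of differentiation. They were chosen by measured values in the day 25 library. A barcode was kept with at least 500 genes and at most 20% of its unique molecular identifiers (UMIs, counted RNA molecules) on mitochondrial genes, whose names start with mt-. A kept cell was a member with at least 2 UMIs of Pou4f3, 0 UMIs of Slc26a5, at least 5000 UMIs in all and at least 3% of UMIs on mt- genes. Pou4f3 encodes a transcription factor that hair cells need to survive, and Slc26a5 encodes prestin, the motor protein of outer hair cells. The members were 75 of 6264 kept day 25 cells (1.20%) and of 48110 kept cells in the series. Among the 1000 day 25 cells within the other bounds they were 7.50%, and the other 925 cells, called prestin-positive here, held at least 1 Slc26a5 UMI.

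The organoids were grown from Lgr5+ cochlear progenitor cells of C57BL/6 mice, with no genotype, age or number of animals stated in the labels. All 3 groups passed through expansion medium of DMEM/F-12 and GlutaMAX with penicillin/streptomycin, N2, B27, EGF, bFGF, IGF, CHIR99021, Y-27632 and LPA, and the expansion group was taken at passage 2 (day 8). The day 5 and day 25 groups were then moved to a medium with LY4115775, which was withdrawn after the first 5 days, and with RA, A83-01, Shh, BDNF and bFGF throughout. Cells were freed with trypsin, sorted as single living cells with DAPI, and sequenced as 3' ends on the 10x Genomics droplet system (v3 kit), with 1 library per group. With 1 library per group no difference could be tested, and all intervals are 95% intervals for counting error.

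The cochlea holds inner hair cells, which pass sound signals to the auditory nerve, and outer hair cells, which amplify sound through prestin. Both arise from progenitors that switch on Atoh1, while neighbouring cells are held as supporting cells by Notch signalling. Vestibular hair cells, the balance receptors, share the bundle and transduction genes with both kinds.

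Hair cell markers were present in most members and not in all. Otof, which encodes otoferlin, the calcium sensor of vesicle release at the hair cell synapse, had a UMI in 57 of 75 members (76.0%), and Gfi1, a hair cell transcription factor, in 47 (62.7%). Both were seen in 40 members and neither in 11, of which 9 also carried many transcripts of other cell kinds. When every cell was thinned to 5000 UMIs, Otof was seen in 60.0% of members (48.0 to 71.2) and Gfi1 in 29.3% (19.4 to 41.0). In the 3486 cells of like depth and mitochondrial share with 0 Pou4f3 UMIs the thinned shares were 1.92% and 0.488%, and in mesenchyme-like cells of the library 1.72% and 0.737%. The members' shares were above these background shares, at a median depth of 12624 UMIs against 9450 in the Pou4f3-zero cells and 7162 in the mesenchyme-like cells.

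The day 25, day 5 and expansion libraries had median depths of 8310, 5803 and 4778 UMIs per barcode (76296949, 140255047 and 207026905 UMIs in all). Day 25 shared 22 barcodes with day 5, of which 1 was a member, and 54 with expansion, of which none was. Scrublet called 16 of 75 members doublets (21.3%), against 53 of 925 prestin-positive cells (5.73%) and 2.44% of all kept day 25 cells, and called doublets were not removed.

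Absence of prestin depended little on depth above 10000 UMIs. Slc26a5 was at 0 in 26 of 258 cells with 5000 to 10000 UMIs (10.1%), in 30 of 461 with 10000 to 20000 (6.51%) and in 19 of 281 deeper cells (6.76%). Prestin-positive cells carried 1 to 34 Slc26a5 UMIs with a median of 6, and after thinning to 5000 UMIs 86.3% of them still showed one. Some members can therefore be cells in which a low level was missed, and the number of these was not tested. The zeros were spread unevenly over the other bounds. They made up 23.3% of cells with 2 Pou4f3 UMIs and 4.75% of cells with at least 10, and 64.9% of the 37 cells with 3 to 5% mitochondrial UMIs against 3.64% of the 605 cells with 10% or more.

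Many members also carried markers of other cell kinds. A sum of 10 such genes (Krt8, Krt18, Krt19, Cldn4, Gjb2, Gjb6, Slc1a3, Epyc, Otor and Apod) reached 3 UMIs per 5000 or more in 31 of 75 members (41.3%) and in 69 of 925 prestin-positive cells (7.46%). These 31 members held 51.8% of the members' UMIs, their median mitochondrial share was 4.50% against 9.75% in the other 44, and 14 of them (45.2%) were called doublets. The sum ranged from 4.08 to 84.0 in them, with a median of 18.7, against a median of 0.371 in prestin-positive cells. The plot of these markers against the mitochondrial share shows most of the 31 cells on its left side, where few prestin-positive cells lie. Each pooled comparison below is therefore given for all members and then, by its main counts, without these cells.

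**Figure D1:**
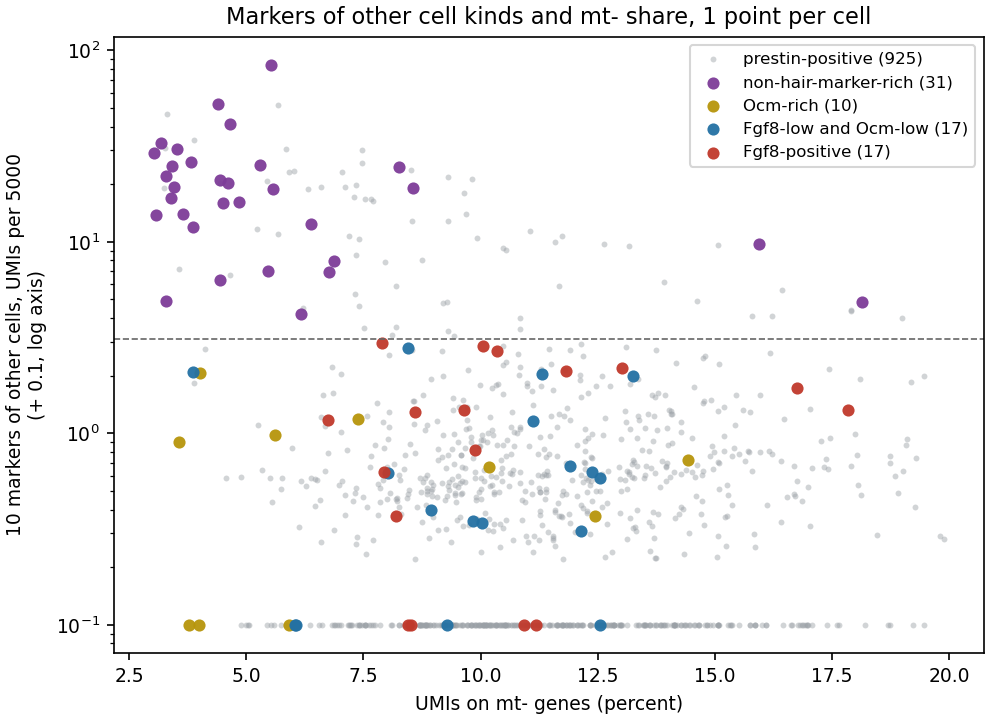
Summed UMIs of 10 markers of other cell kinds per 5000 UMIs (log axis, 0.1 added) against the percentage of UMIs on mt- genes, 1 point per day 25 cell within the bounds. The dashed line is the bound of 3 UMIs per 5000, above which 31 of 75 members and 69 of 925 prestin-positive cells lie.

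Most inner hair cell genes were higher in the members than in the prestin-positive cells. Levels are pooled UMIs divided by the group's total and multiplied by 1000000, which gives CPM. Genes at 20 CPM or more in either group were called where CPM + 1 differed at least 2-fold. Of 11 genes on the inner hair cell list 9 were measured, 5 were higher and 2 lower in members, and the median log2 ratio was 3.00. Over all 7382 genes measured, 706 were higher (9.56%) and 549 lower (7.44%), with a median of -0.07. Since the groups were split on prestin, genes that go with prestin in hair cells could be high or low through that choice, and these values describe the split.

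Fgf8, a secreted growth factor made by inner hair cells, stood at 104 CPM (87.0 to 124) in members and 4.75 CPM (3.72 to 5.97) in prestin-positive cells, 22.0-fold higher (16.4 to 29.7). It had UMIs in 28 of 75 members, so most members lacked a detected transcript. Fgf8 lies at chr19:45736798-45742915 on the minus strand of GRCm38. Tbx2, a transcription factor of inner hair cell fate, was at 48.9 against 5.01 CPM, 9.77-fold higher. Rprm, a p53 target, was at 561 against 62.8 CPM (8.94-fold), Brip1, a DNA helicase gene, at 84.7 against 9.69 CPM (8.75-fold), and Shtn1, which encodes shootin 1, at 169 against 19.4 CPM (8.71-fold). Slc17a8, which encodes the glutamate transporter that fills synaptic vesicles of inner hair cells, went the other way, at 83.9 against 240 CPM and 2.85-fold lower. Slc7a14, a further inner hair cell gene, was 3.35-fold lower, and Otof (253 against 304 CPM) and Calb2 (1016 against 1070 CPM), a calcium buffer gene, did not pass the 2-fold bound.

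Outer hair cell genes were lower in members. Besides Slc26a5, which the rule set to 0, 7 of the list's measured genes were lower and 0 higher. The median of all 13, Slc26a5 included, was -1.47. Ocm, which encodes oncomodulin, an abundant calcium-binding protein of outer hair cells, stood at 465 CPM (427 to 504) against 2388 CPM (2364 to 2413), 5.14-fold lower (4.73 to 5.60). It had UMIs in 48 of 75 members and in 911 of 925 prestin-positive cells. Aqp11, a water channel gene, was 6.52-fold lower (83.1 against 542 CPM), Strip2 6.30-fold (72.5 against 457 CPM) and Chrna10, a subunit of the efferent acetylcholine receptor, 2.69-fold (88.8 against 239 CPM). Ikzf2, the transcription factor that holds outer hair cell identity, was at 11.4 against 21.8 CPM and Bcl11b at 26.1 against 45.1 CPM, and neither was called.

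Genes of early hair cell development were partly higher. Of 13 measured genes on the nascent hair cell and Notch ligand list 5 were higher and 1 lower, with a median of 0.61. Atoh1, the factor that starts hair cell fate, was at 41.6 CPM (30.9 to 54.6) against 10.7 CPM (9.09 to 12.4) and 3.90-fold higher, with UMIs in 23 members. Hes6, a Notch pathway gene active in new hair cells, was 2.68-fold higher and Sox11 4.49-fold. Stmn1, a microtubule regulator, was 6.08-fold higher, and Chrna1, a muscle-type acetylcholine receptor subunit, 6.58-fold. Of the 116 Sox11 UMIs in members, 86 came from the 31 cells rich in other markers. Sox11 was at 94.5 CPM in members, 50.7 CPM in the other 44 members and 121 CPM in Pou4f3-zero cells. The Notch ligand Dll1 was lower, at 10.6 against 37.6 CPM, while the ligand Jag2 was at 68.5 against 44.0 CPM and not called. Pvalb, which encodes the calcium buffer parvalbumin, was also higher, at 597 against 170 CPM (3.50-fold).

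The vestibular list gave no higher gene. Of 7 measured genes 4 were lower, and the median was -1.03. Spp1, which encodes osteopontin, was at 853 against 4752 CPM and 5.57-fold lower, and Bdnf (292 against 622 CPM), Calb1 (1185 against 2478 CPM) and Tmc2 (26.9 against 55.8 CPM) were 2.13-fold, 2.09-fold and 2.07-fold lower. Anxa4, an annexin gene, stood at 201 against 101 CPM, just under the bound at 1.99-fold. Sox2 was at 64.4 against 55.5 CPM and Mapt, which encodes tau, at 61.9 against 92.1 CPM. Hmx2, Hmx3 and Dlx5, transcription factors of the vestibular organ, stayed below 20 CPM in both groups, with 4, 21 and 0 UMIs in all members together, and 20 of the 21 Hmx3 UMIs came from the cells rich in other markers.

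Some genes of the working hair cell were lower in the pooled members, while most measured genes of 3 of the 4 lists did not pass the bound. Of 12 measured mechanotransduction genes 4 were lower, among them Tmc1, a pore-forming subunit of the transduction channel, at 77.4 against 229 CPM, and Pcdh15, which forms tip links, at 71.7 against 172 CPM. The bundle list had 7 of 20 lower, with Strc, which encodes stereocilin, at 31.0 against 138 CPM. The ribbon synapse list had 4 of 12 lower, with Cacna1d, the hair cell calcium channel gene, at 171 against 447 CPM. The efferent receptor and potassium channel list had 5 of 8 lower, with Kcnn2, the calcium-activated channel of the efferent response, at 40.7 against 148 CPM. None of these 4 lists had a higher gene.

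Lists of other cell kinds were higher in the same pooled comparison. Of 12 measured supporting cell genes 7 were higher, among them Gjb2, which encodes connexin 26, at 301 against 21.6 CPM. The keratin and claudin list had 7 of 9 higher, with Krt8 at 534 against 103 CPM, the mesenchyme list 5 of 5 and the greater epithelial ridge list 6 of 7. Summed over the whole lists, keratin and claudin genes reached 4473 CPM in members, 1741 in prestin-positive cells and 8699 in Pou4f3-zero cells, with all 11 genes detected in members and single members ranging from 0 to 26205. The supporting cell sum was 1385, 402 and 2703 CPM, with all 18 genes detected and members between 0 and 10104. The mesenchyme sum was 768, 130 and 2246 CPM, with Postn at 0 and members between 0 and 6272. Neuron genes summed to 1005, 1211 and 40.1 CPM with Gap43, Prph and Neurod1 at 0 in members, and genes of glia, immune cells, endothelium and melanocytes to 19.6 CPM with Ptprc, Tyrobp, Pecam1, Tyr and Dct at 0.

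Several of the largest differences came from few cells. Car3, a carbonic anhydrase gene, was 48.6-fold higher in members, but 9 cells held it and 1 of them 49.3% of its UMIs, and with at least 3 Pou4f3 UMIs asked of every cell its log2 ratio turned to -0.83. Tnnt2, which encodes a troponin, was 27.8-fold higher with 11 cells and 43.0% from 1 cell. Cib3, a relative of a transduction channel partner, was 32.9-fold higher with 12 cells, and Otol1, which encodes otolin, 14.8-fold with 26 cells. At the other end Vmo1 had 0 UMIs in members against 224 CPM, at least 91.8-fold lower by the floor of 3 UMIs over the group, but 1 prestin-positive cell held 97.5% of that group's UMIs. Without the cells rich in other markers the prestin-positive level of Vmo1 was 0.574 CPM, from 8 UMIs. The interferon-induced genes Cxcl10 (34.2 against 364 CPM) and Ifit1 (16.3 against 176 CPM) were 10.7-fold and 10.8-fold lower, and the sialyltransferase gene St8sia3 10.8-fold. Ccl21a, 11.7-fold higher, belongs to a family of near-identical genes between which reads can be split, so its value is uncertain.

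Without the cells rich in other markers in either group, 44 members were set against 856 prestin-positive cells. Over 7183 genes 334 were higher (4.65%) and 347 lower (4.83%), with a median of -0.01, fewer than with all members. The inner hair cell list had 6 of 10 measured genes higher and a median of 3.33, and Fgf8 was 32.2-fold higher (164 against 5.09 CPM). The outer list had 7 of 13 lower including Slc26a5, with Ocm at 681 against 2470 CPM (3.63-fold lower), and Ikzf2 now passed the bound on 3 UMIs in all members. The nascent list had 9 of 14 higher, with Atoh1 at 84.5 against 11.5 CPM (7.36-fold). Anxa4 was higher (345 against 103 CPM, 3.33-fold), Spp1 was the 1 vestibular gene lower (3.50-fold), and Slc17a8 was 2.04-fold lower.

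The lower level of working hair cell genes was mostly not seen in these 44 members. Mechanotransduction had 0 of 12 genes past the bound in either direction and a median of -0.10, the bundle list 2 of 21 lower with a median of 0.04, the ribbon list 1 of 12 lower and the efferent and potassium channel list 2 of 8 lower. Tmc1 was at 125 against 239 CPM, 1.91-fold lower and not called. The mesenchyme sum was 144 CPM and the supporting cell sum 875 CPM, with 10104 CPM in the highest single cell. Genes of these lists were still called against the prestin-positive cells. Of the greater epithelial ridge list 4 of 5 measured genes were higher (median 2.56), of the mesenchyme list 3 of 3 (Col2a1, Dcn and Lum) and of the supporting cell list 4 of 9, with 3 lower. The mesenchyme genes came from few of the 44 cells, Col2a1 from 4 and Dcn and Lum from 7 each. A single cell held 55.6% of the Dcn UMIs, and the median cell had a mesenchyme sum of 0. Keratin and claudin genes still summed to 2059 CPM against 1741 CPM in all prestin-positive cells, with Cldn3, Cldn4 and Cldn7 higher, while Krt8 was at 16.9 CPM. The part that RNA of other cells had in the pooled values was not tested beyond this.

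The members were split into 4 sets, with bounds chosen after their values were seen, so that each set is described and none is a test. The first is the 31 cells rich in other markers. Of the other 44, 17 had at least 2 Fgf8 UMIs, 10 had fewer and at least 2 Ocm UMIs per 5000, and 17 met neither bound. The last are called Fgf8-low and Ocm-low, since 9 of them still held Ocm (up to 4 UMIs) and 1 held Fgf8. Near the bounds lay 6 members with 2 to 4 other-marker UMIs per 5000, 5 with 2 Fgf8 UMIs, 6 with 1, and 8 with 1 to 3 Ocm UMIs per 5000. Scrublet called 0 of the 17 Fgf8-positive cells, 0 of the 17 Fgf8-low and Ocm-low cells and 2 of the 10 Ocm-rich cells doublets.

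**Figure D2:**
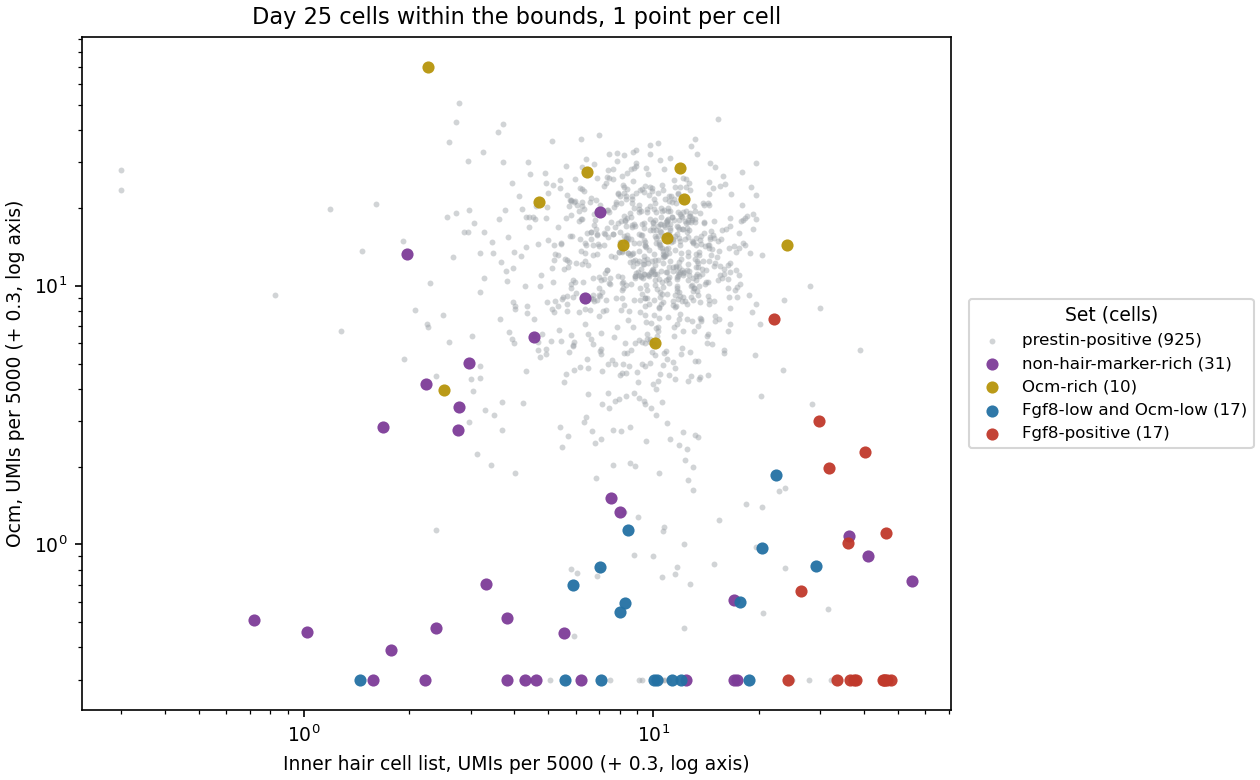
Summed UMIs of the inner hair cell list per 5000 UMIs against Ocm UMIs per 5000 (both log axes, 0.3 added), 1 point per day 25 cell within the bounds, coloured by set. The 17 Fgf8-positive cells have 21.8 to 47.4 inner list UMIs per 5000, against a median of 9.26 in prestin-positive cells. The inner list includes Fgf8, and Fgf8 and Ocm set the bounds of the sets, so their positions follow in part from the bounds.

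The Fgf8-positive cells also held other inner hair cell genes. Fgf8, which chose them, had 2 to 12 UMIs per cell with a median of 5, Rprm 7 to 71 with a median of 24, and Otof 3 to 18 with a median of 8. Slc17a8 had UMIs in 13 of the 17. The whole list, Fgf8 included, gave 21.8 to 47.4 UMIs per 5000 with a median of 37.3. The 17 Fgf8-low and Ocm-low cells gave 1.15 to 28.9 with a median of 9.76. In the plot of the inner list against Ocm the Fgf8-positive cells lie at the right edge, where a few prestin-positive cells reach up to 46.1.

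Set against the prestin-positive cells, with genes from 50 CPM counted because the set is small, 279 of 4300 genes were higher (6.49%) and 250 lower (5.81%), with a median of 0.07. The inner list had 8 of 10 measured genes higher and a median of 4.34, with Fgf8, which chose the set, among the genes counted. Rprm was at 2343 CPM (2132 to 2570) and 37.3-fold higher, Brip1 at 327 CPM and 33.7-fold, Shtn1 at 518 CPM and 26.8-fold, and Tbx2 at 109 CPM and 21.8-fold. Otof (809 against 304 CPM) and Calb2 (2271 against 1070 CPM) now passed the bound as well. Slc17a8 was at 290 CPM (219 to 377) against 240 CPM (232 to 247), a difference within counting error.

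Synapse and transduction genes were also present in this set. Cabp2, a calcium-binding protein of the ribbon synapse, was at 176 against 38.0 CPM, and Rims2, an active zone protein, at 275 against 93.4 CPM. Lhfpl5 and Tmie, partners in the transduction complex, were 2.22-fold and 2.50-fold higher, and Tmc1 was at 181 against 229 CPM. The identity list had 8 of 23 genes higher and 0 lower, with Gfi1 at 285 against 123 CPM and Pvalb at 1415 against 170 CPM. Outer genes were low, with Ocm at 213 CPM from 7 cells (11.2-fold lower), Strip2 at 46.7 CPM (9.80-fold lower) and Ikzf2 at 0 UMIs. The developmental transcription factor gene Six2 was at 10.4 against 160 CPM, and Cxcl10 had 0 UMIs, at least 23.4-fold lower.

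The 17 Fgf8-low and Ocm-low cells carried early hair cell genes, some of which the Fgf8-positive cells also held. Over 4104 genes 196 were higher (4.78%) and 287 lower (6.99%) than in prestin-positive cells, with a median of 0.01. The nascent list had 8 of 11 measured genes higher and 0 lower, and its median was 1.35. Atoh1 was at 119 CPM (82.0 to 167) against 10.7 CPM, 11.2-fold higher (7.44 to 16.3), with 0 to 8 UMIs per cell and UMIs in 12 of 17 cells. Hes6 was 6.21-fold higher, Nhlh1, a neural transcription factor gene, 4.14-fold, the Notch-modifying enzyme gene Mfng 3.13-fold and Insm1, a factor of young outer hair cells, 2.59-fold. Pou4f3, whose bound every cell within the rule met, had 4 to 37 UMIs per cell with a median of 17. Its level was 1097 CPM, against 1052 CPM in the Fgf8-positive cells and 744 CPM in prestin-positive cells. In the Fgf8-positive cells Atoh1 was at 83.0 CPM (47.4 to 135), Hes6 at 114 CPM and Jag2 at 202 CPM. Set directly against the Fgf8-low and Ocm-low cells, none of these genes was called. Jag2 came closest, at 202 against 101 CPM with a fold interval of 1.2 to 3.375, just under the bound. Insm1 was called, with 0 UMIs in the Fgf8-positive cells against 23.

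Anxa4 had UMIs in all 17 Fgf8-low and Ocm-low cells, 2 to 22 with a median of 7. It was at 509 against 101 CPM in prestin-positive cells (5.03-fold higher). Other vestibular genes were mixed. Spp1 was 6.65-fold lower, with 56.1% of its UMIs from 1 cell, and Mapt 8.51-fold lower, on 3 UMIs. Sox2 was at 79.4 against 55.5 CPM. Bdnf (473 against 622 CPM), Calb1 (1541 against 2478 CPM) and Tmc2 (39.7 against 55.8 CPM) were lower by less than 2-fold. Ccer2 (1166 against 52.2 CPM) and Grp, which encodes gastrin-releasing peptide (394 against 19.2 CPM), were 22.3-fold and 20.5-fold higher. Cdkn1c, a cell cycle inhibitor gene, was at 137 against 11.1 CPM. Genes of later function were mixed. The mechanotransduction list had 1 of 12 measured genes lower (Tmc1, 2.27-fold), the bundle list 3 of 18 and the ribbon synapse list 2 of 11, among them Slc17a8 at 32.5 CPM from 2 cells, with 0 higher in each. The efferent receptor and potassium channel list had 4 of 8 lower, with Kcnma1, which encodes the BK channel, 6.13-fold lower, and 1 higher, Chrna9 at 256 against 123 CPM, while Chrna10 was at 217 against 239 CPM. Ocm was at 54.2 CPM (44.1-fold lower), as the bound of the set required.

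The 10 Ocm-rich cells were nearest to the prestin-positive cells in Ocm, at 2841 CPM (2550 to 3157) against 2388 CPM, as their bound required. Strip2 was at 156 against 457 CPM, Aqp11 at 213 against 542 CPM and Chrna10 at 49.1 against 239 CPM. Their median mitochondrial share was 5.77%, and 1 cell held 98.7% of their Otol1 UMIs. In the 31 cells rich in other markers Pou4f3 was at 200 CPM with a median of 3 UMIs per cell, Atoh1 had 1 UMI in all cells together, and Krt8 and Gjb2 were at 1015 and 554 CPM. In Pou4f3-zero cells Krt8 and Gjb2 were at 1193 and 559 CPM. The 31 cells also included 5 with at least 2 Fgf8 UMIs.

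**Figure D3:**
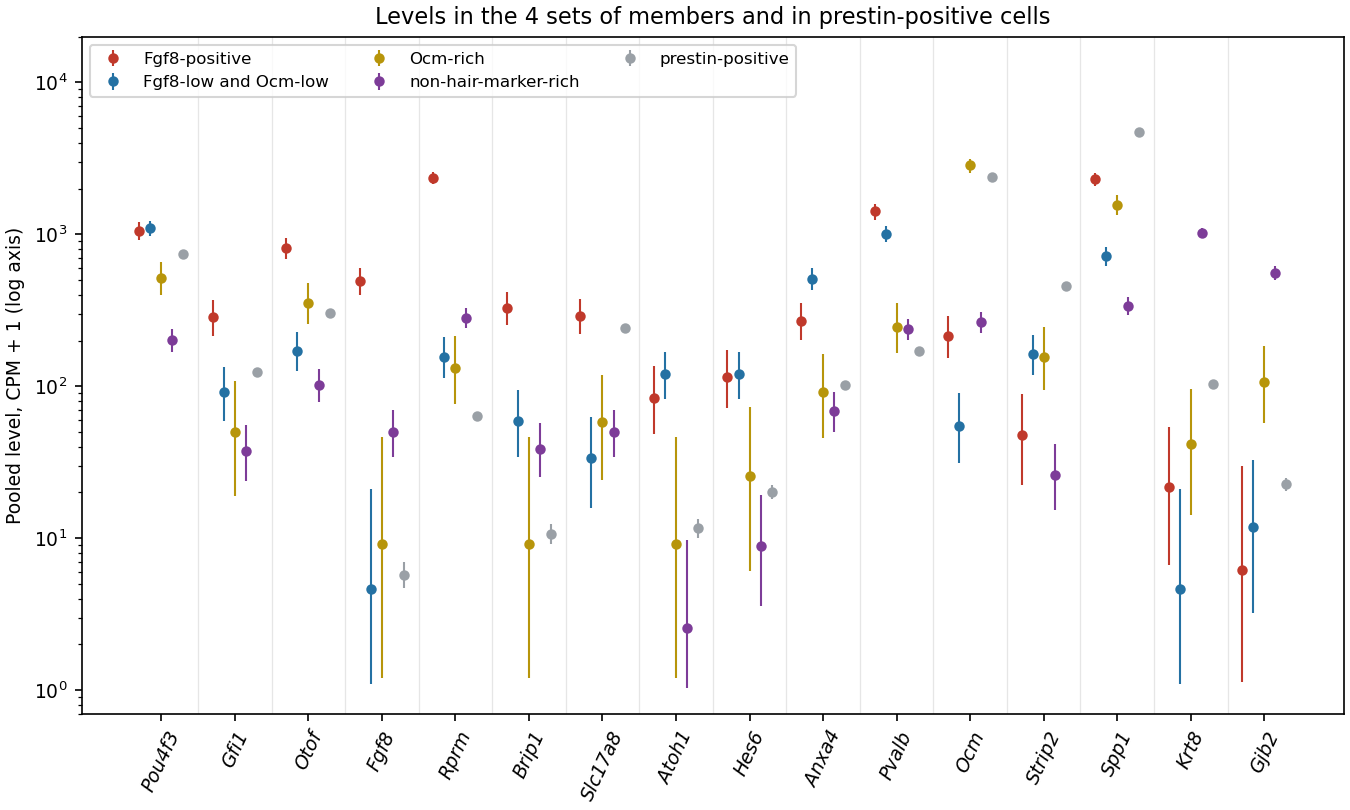
Pooled CPM + 1 (log axis) of 16 genes in the 4 sets of members and in the 925 prestin-positive cells, with points for pooled levels and bars for 95% Poisson intervals. Rprm and Brip1 are highest in the Fgf8-positive cells and Anxa4 in the Fgf8-low and Ocm-low cells. Atoh1 is highest in the latter too, with an interval that overlaps that of the Fgf8-positive cells. The heights of Fgf8, Ocm, Krt8 and Gjb2 follow from the bounds of the sets.

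Across the 75 members the list sums moved together in part. Over single cells thinned to 5000 UMIs the inner list sum had a Spearman rho of 0.73 with the mechanotransduction sum, 0.76 with the vestibular sum, 0.35 with the nascent sum and 0.02 with the outer sum. It also had 0.62 with the mitochondrial share and -0.46 with the supporting cell sum. The mechanotransduction and vestibular sums had -0.49 and -0.46 with the supporting cell sum, and 0.64 and 0.62 with the mitochondrial share. These cells share 1 library and its depth. They include the 31 cells rich in other markers, whose part in each rho was not tested.

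Cells with at least 2 Fgf8 UMIs were 22 of 75 members (29.3%, 19.4 to 41.0, Clopper-Pearson). They were 13 of 925 prestin-positive cells (1.41%, 0.750 to 2.39), 7 of 568 Pou4f3 cells with under 3% mitochondrial UMIs (1.23%) and 0 of 3486 Pou4f3-zero cells. The 13 prestin-positive cells with Fgf8 had a median of 3 Slc26a5 UMIs, against 6 in all prestin-positive cells. Thinned to 5000 UMIs, Fgf8 was seen in 26.7% of members, 1.62% of prestin-positive cells and 0.0287% of Pou4f3-zero cells. Ocm showed the reverse, in 44.0% of members, 97.1% of prestin-positive cells and 10.5% of Pou4f3-zero cells, the last being close to the 11.1% of mesenchyme-like cells. Tbx2 was seen in 24.0% of members and in 20.7% of Pou4f3-zero cells, so its UMIs in members are near the share in other cells of the library.

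The level of prestin split other genes by degrees. Cells were banded by 0, 1, 2 to 4 and at least 5 Slc26a5 UMIs, with 75, 69, 249 and 607 cells. Fgf8 was at 104, 15.0, 11.8 and 1.95 CPM in these bands, and Rprm at 561, 171, 117 and 38.9 CPM. Ocm was at 465, 1466, 2058 and 2553 CPM. Spp1 stepped up between 0 and 1 UMI, from 853 to 4088 CPM, and was at 3991 and 5021 CPM above. Otof was level at 253, 250, 258 and 321 CPM. Median depth was 12624, 10314, 10914 and 16029 UMIs, and cells rich in other markers were 31, 11, 26 and 32 of the bands, so band and makeup moved together and their parts were not tested.

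**Figure D4:**
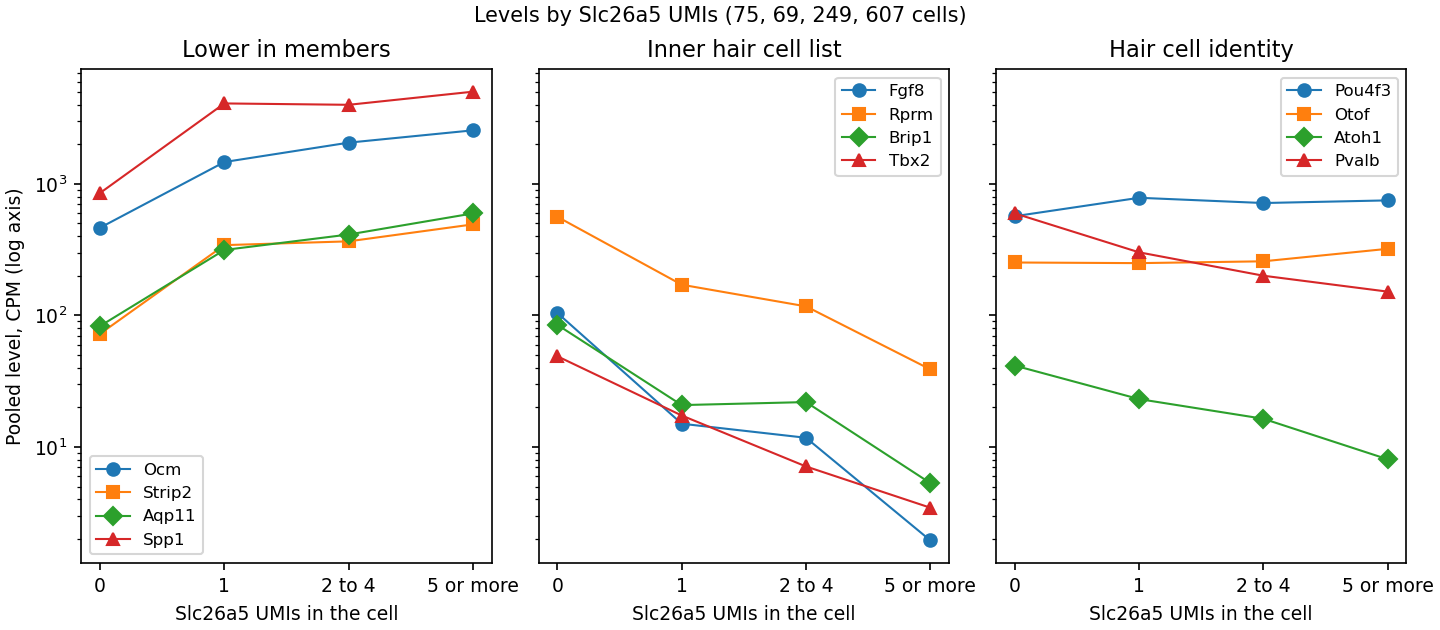
Pooled CPM (log axis) of 12 genes in day 25 cells within the bounds, by the number of Slc26a5 UMIs in the cell (75, 69, 249 and 607 cells). Genes lower in members rise from left to right, Spp1 mostly in its first step with a small dip after it. Inner hair cell genes fall, and Pou4f3 and Otof stay nearly level.

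At the edges of the rule the makeup changed fast. Cells with 1 Pou4f3 UMI that met the other bounds numbered 129, of which 117 were rich in other markers, and held Otof at 4.54 CPM and Krt8 at 920 CPM. The 10 members with 2 Pou4f3 UMIs, of which 8 were rich in other markers, held Otof at 80.2 CPM and Krt8 at 219 CPM. Cells with 2 to 3% mitochondrial UMIs were 14, with Ocm at 3516 CPM, against 16 members with 3 to 4%, 12 of them rich in other markers and with Ocm at 1064 CPM. In the last 1000 UMIs below the depth bound of 5000 lay 5 cells, and in the first 1000 above it lay 3.

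Against the 6189 other kept day 25 cells, which include the 925 prestin-positive cells, the members stood out by hair cell genes. Over 7208 genes 264 were higher (3.66%) and 159 lower (2.21%), with a median of 0.01. Of 23 identity genes 19 were higher, counting Pou4f3 by which members were chosen, and 0 lower. Fgf8 was 61.8-fold higher (104 against 1.69 CPM), Rprm 20.0-fold, Atoh1 14.3-fold (41.6 against 2.90 CPM) and Pvalb 9.76-fold. Ccer2 was at 429 against 19.7 CPM, Grp at 92.1 against 6.36 and Dlk2, a Notch pathway regulator, at 167 against 21.1 CPM.

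Bundle, transduction and cilium genes were higher in this comparison too. Of 12 mechanotransduction genes 7 were higher, with Lhfpl5 at 494 against 133 CPM, and of 21 bundle genes 9. All 6 measured cilium genes were higher, among them Foxj1, the regulator of motile cilia, at 21.2 against 6.64 CPM and Pifo at 32.6 against 6.18. Of 9 inner hair cell genes 6 were higher, of 7 vestibular genes 2 (Anxa4, 3.69-fold, and Bdnf, 2.06-fold, which turned to a log2 ratio of -0.22 with 1 Pou4f3 UMI as the bound), and of 12 nascent genes 8. Neurofilament genes, which hair cells also express, were higher, with Nefm at 684 against 200 CPM. The outer list had Insm1 and Bcl11b higher and Slc26a5 lower, Bcl11b turning to a log2 ratio of -0.15 with 1 Pou4f3 UMI as the bound, while Ocm was at 465 against 776 CPM and Strip2 at 72.5 against 105 CPM.

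Without the 31 cells rich in other markers, removed from the members alone, 916 of 7582 genes were higher (12.1%) and 1082 lower (14.3%), with a median of 0.09. All 23 identity genes were higher, as were 11 of 12 mechanotransduction, 18 of 23 bundle, 8 of 10 inner hair cell, 8 of 13 nascent and 5 of 7 vestibular genes. Fgf8 was then 97.1-fold higher and Atoh1 29.1-fold (84.5 against 2.90 CPM). The supporting cell list had 9 of 12 genes lower and the keratin and claudin list 7 of 9, which the removal partly fixes, and the stress list had 8 of 14 lower.

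Among the genes furthest below the other cells with all members, Vmo1 was at least 47.1-fold lower, although 134 of the 6189 other cells held it and 1 of them 39.4% of its UMIs. Lcn2, which encodes lipocalin 2, was at 19.6 against 207 CPM, and Ccl2, a chemokine gene, at 4.07 against 73.8 CPM. Wfdc18 had 1 UMI in all members against 118 CPM, 145-fold lower with a counting interval of 26.1 to 5736. Of the stress list 3 of 14 genes were lower and 0 higher. Krt8 was at 534 against 894 CPM, and 69.7% of the other kept cells were rich in the 10 markers.

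The same rule was applied to the other libraries. On day 5 it chose 212 of 13850 kept cells, with 3 further cells that had a Slc26a5 UMI, and in expansion 142 of 27996 with 0 such cells. Prestin was thus at 0 in 98.6% of day 5 cells within the bounds, and the rule there does not separate prestin-negative from prestin-positive cells. Cells rich in other markers were 29.2% of the day 5 and 19.0% of the expansion cells, and Scrublet called 35 of the 212 day 5 cells doublets (16.5%). Median depth was 18175 UMIs on day 5 and 9026 in expansion.

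Members were set against the 212 day 5 cells, with 1336 of 7372 genes higher (18.1%) and 602 lower (8.17%). The median over all genes was 0.19, and scaling by TMM or by the median of ratios moved it to -0.09 and -0.07, with 938 and 973 genes higher and 1056 and 1018 lower. Day and library cannot be told apart here. Pou4f3 itself was close, at 568 against 497 CPM.

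Inner hair cell genes were higher on day 25, with 5 of 9 above and 0 below and a median of 1.56, over the 0.19 of all genes. Fgf8 was at 104 against 16.3 CPM (6.39-fold), Slc17a8 at 83.9 against 9.71 CPM (8.64-fold) and Rprm at 561 against 160 CPM (3.51-fold). Functional genes went both ways. The mechanotransduction list had 3 of 12 genes higher and 3 lower (Tomt, Myo7a and Cdh23) with a median of -0.24, the bundle list 1 of 20 higher and 4 lower with a median of -0.43, and the ribbon synapse list 3 of 12 higher and 0 lower with a median of -0.50. The efferent receptor and potassium channel list had 3 of 10 higher and 3 lower, and the identity list 2 of 23 higher and 7 lower. Among the higher genes were Tmc1 7.46-fold (77.4 against 10.4 CPM), Chrna9, the partner subunit of Chrna10, 9.56-fold, Kcnma1 6.77-fold and Cabp2 4.57-fold, and among the lower ones Strc and Whrn of the bundle. Ocm, pooled over the members, was 7.46-fold higher (465 against 62.2 CPM) although members lack prestin. Of its 570 UMIs, 347 came from the 10 Ocm-rich cells. It was at 213 CPM in the Fgf8-positive cells and at 54.2 CPM in the Fgf8-low and Ocm-low cells, whose bound keeps it low. Strip2 was 4.34-fold lower and Chrna10 3.32-fold lower. Spp1 (853 against 17.2 CPM) and Mapt (61.9 against 0.662 CPM) were 49.6-fold and 93.5-fold higher, the second on 3 UMIs on day 5 and with an interval of 30.8 to 464.

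Early genes differed less between the days. The nascent list had 1 of 12 genes higher, Chrna1, and 3 lower, and its median of 0.01 lay under that of all genes. Hes6 was at 51.3 against 191 CPM (3.71-fold lower), Jag2 at 68.5 against 187 CPM and Mfng at 53.8 against 120 CPM. Atoh1 was at 41.6 against 76.1 CPM and not called. Among the members, the 17 Fgf8-low and Ocm-low cells, which exclude cells rich in other markers, had Atoh1 at 119 CPM (82.0 to 167). With such cells included, day 5 was at 76.1 CPM (68.3 to 84.6) and expansion at 138 CPM (121 to 158). The day 5 level without such cells, given below, lies within the interval of the 17 cells. The cilium list had 3 of 7 lower, with Pifo at 32.6 against 106 CPM.

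Keratin and stress genes were higher on day 25 as well. Of 9 keratin and claudin genes 8 were higher, with a median of 2.95 and Krt8 at 534 against 2.87 CPM (186-fold). Of 11 immediate early and stress genes 9 were higher with a median of 1.58, among them Atf3 at 703 against 9.93 CPM (70.8-fold) and Jun at 1375 against 193 CPM. Srxn1, an antioxidant enzyme gene, was 292-fold higher and Hbegf, a growth factor gene, 77.5-fold. Atf3 was at 394 CPM in the Fgf8-positive cells, 621 in the Fgf8-low and Ocm-low cells and 919 in the cells rich in other markers. Each of these sets was thus above day 5, while Krt8 in the first and second of these was at 20.7 and 3.61 CPM. Cdkn1a, a p53 target and cell cycle inhibitor, was 4.26-fold higher, with 29.3% of its UMIs from 1 cell.

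Without the cells rich in other markers in either group, 44 members were set against 150 day 5 cells, with 1336 of 7204 genes higher (18.5%) and 612 lower (8.5%) and a median of 0.23. The nascent list then had 3 of 14 genes higher (Chrna1, Stmn2 and Insm1) and 1 lower (Hes6, 97.97 against 241 CPM), with a median of 0.30, so its balance of calls turned over. Jag2 and Mfng were no longer called, and Atoh1 was at 84.5 against 95.3 CPM. The inner list had 7 of 10 higher, mechanotransduction 4 of 12 higher and 2 lower, the bundle list 2 of 21 each way, the ribbon list 4 of 12 higher and the stress list 10 of 11 higher. Spp1 was then 192-fold and Atf3 226-fold higher, and Srxn1 80.2-fold, on 4 UMIs on day 5.

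Genes lower than on day 5 with all members included Col2a1, a cartilage collagen (31.8 against 462 CPM, and 37.2 against 92.1 CPM without the cells rich in other markers), the histone gene Hist1h2ap (14.7 against 209 CPM) and Tmem91 (4.07 against 97.8 CPM). The day 25 matrix was made with another Cell Ranger version than the other matrices, and its part in these values cannot be told apart from the day. Cell division genes summed to 34.2 CPM in members, 35.8 CPM in prestin-positive cells and 30.02 CPM in the day 5 cells.

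**Figure D5:**
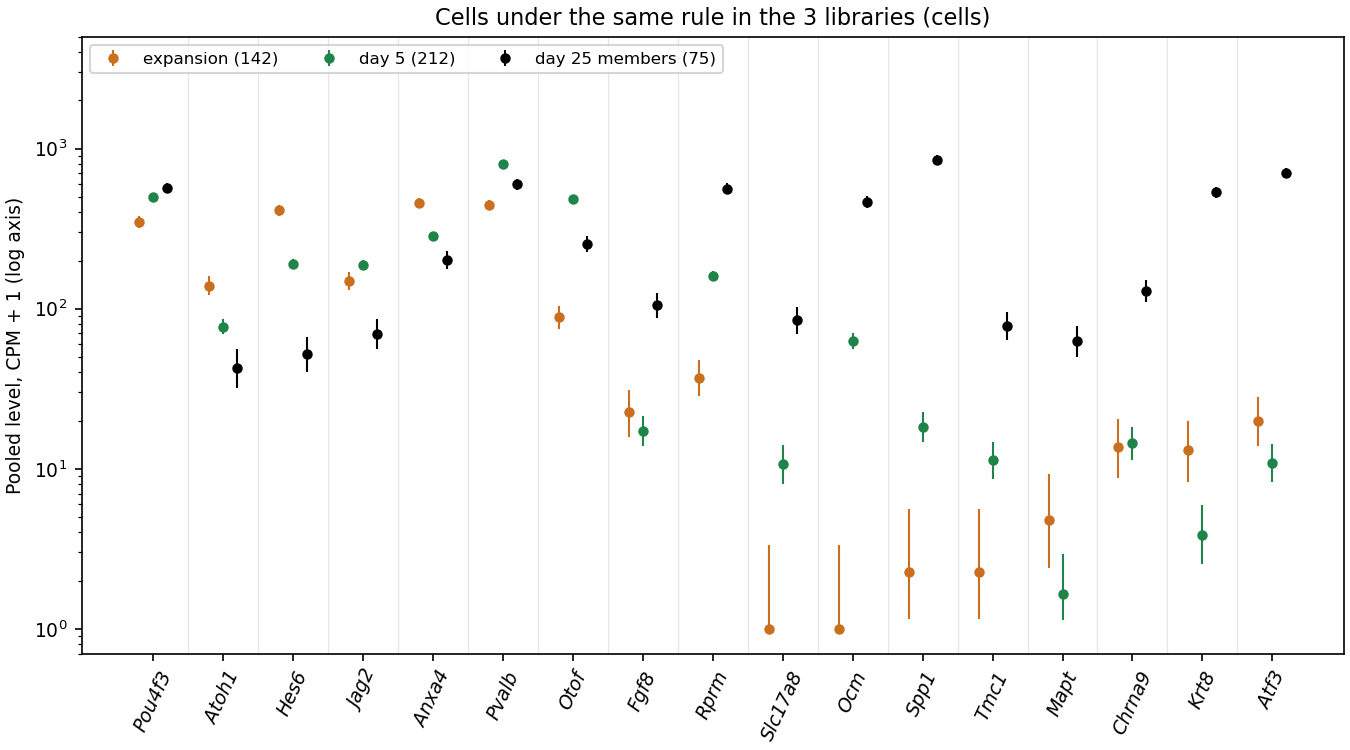
Pooled CPM + 1 (log axis) of 17 genes in cells under the same rule in expansion (142 cells), on day 5 (212) and on day 25 (75 members), with bars for 95% Poisson intervals. Hes6 goes from 410 to 191 to 51.3 CPM, and Slc17a8, Ocm, Spp1 and Tmc1 are highest on day 25.

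Along the 3 libraries Atoh1 was at 138, 76.1 and 41.6 CPM, Hes6 at 410, 191 and 51.3 CPM, and Anxa4 at 454, 283 and 201 CPM. The steps from day 5 to day 25 were small or absent for Atoh1 and Anxa4 without the cells rich in other markers. With 115 expansion cells, 150 day 5 cells and 44 members, Atoh1 was at 142, 95.3 and 84.5 CPM and Anxa4 at 470, 344 and 345 CPM, while Hes6 was at 435, 241 and 97.97 CPM. Over all cells under the rule Pvalb had no such order, at 446, 795 and 597 CPM, and Otof was highest on day 5, at 87.8, 486 and 253 CPM. Slc17a8 and Ocm had 0 UMIs in the expansion cells, with an interval of 0 to 2.33 CPM. Fgf8 was at 21.5, 16.3 and 104 CPM, and at least 2 Fgf8 UMIs were found in 8 of 142 expansion cells (5.63%), 12 of 212 day 5 cells (5.66%) and 22 of 75 members (29.3%).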

How the data were processed

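The authors deposited raw counts of UMIs per gene and barcode for each library, made with Cell Ranger 3.0.1 (expansion and day 5) and 3.1.0 (day 25) per the file headers, and GRCm38 and hg38 are the builds in the submitters' processing notes. Annotation and cell calling settings are not given in the sources used here. Cells were grouped by the labels and by the rule above. UMIs were summed over cells and divided by their total to give CPM. Intervals are exact Poisson for levels, conditional binomial for ratios and Clopper-Pearson for shares, at 95%, and cover counting error only. A fold is the ratio of CPM, and calls used a 2-fold difference of CPM + 1 at 20 CPM (50 CPM for the 2 small sets), with mt- genes left out. A floor of 3 UMIs served for 0 counts, and gene lists with fewer than 5 measured genes got no median. Thinned shares used 5000 UMIs per cell drawn without replacement. The 465 mesenchyme-like cells had 0 Pou4f3 and Epcam UMIs and at least 5 UMIs of 10 mesenchyme genes. Doublets were called with Scrublet at 0.8% per 1000 barcodes and 30 components. With 1 library per group there was no test.

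The members and the 22 gene lists were chosen with earlier results of these data known. The rule for named genes took the 10 furthest apart each way at 50 CPM or more, up to 6 members of each list and a fixed set of 36 genes, from which the text takes a part chosen with values seen. The calling step was checked on simulated counts with known folds, which tests the code and not these data. Alternatives were other scalings, pseudocounts, filters, depths, bounds, weightings and the removal of called doublets. Python 3.11.15, numpy 2.4.6, scipy 1.17.1, pandas 2.3.3, scanpy 1.11.5 and matplotlib 3.10.9 were used, and positions are from GENCODE annotation of GRCm38.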

Additional observations from a re-analysis of the deposited data

How the results depend on the processing

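Counts of genes past 2-fold moved with the filter, the scaling and the bounds of the rule, and the cause was not tested. Higher and lower genes against prestin-positive cells numbered 1336 and 917 with a filter at 5 CPM, 1900 and 1365 at 1 CPM, 351 and 312 with 5% mitochondrial UMIs as the bound, 1106 and 1151 with 1 Pou4f3 UMI, and 334 and 347 without the cells rich in other markers. Against the other kept day 25 cells they numbered 489 and 442 at 5 CPM, 766 and 923 at 1 CPM, 415 and 321 without called doublets, 603 and 677 after thinning to 5000 UMIs, 736 and 876 with the 5% bound, 426 and 388 with 3 Pou4f3 UMIs, 15 and 49 with 1 Pou4f3 UMI, 421 and 450 as a mean over cells, 873 and 516 against cells with 0 Pou4f3 UMIs, and 916 and 1082 without the cells rich in other markers. A pseudocount of 5 CPM left 96 lower there. Against day 5 they numbered 2081 and 1107 at 5 CPM and 2741 and 1625 at 1 CPM, and 1018 and 1056 genes were lower by the median of ratios and by TMM. The number of members was 49 from 10000 UMIs, 204 with 1 Pou4f3 UMI and 44 without the cells rich in other markers.

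Direction turned for Car3 against prestin-positive cells with 3 Pou4f3 UMIs as the bound (log2 ratio -0.83), for Krt8 without the cells rich in other markers (-0.20), and against the other kept cells with 1 Pou4f3 UMI for Bdnf (-0.22) and Bcl11b (-0.15). The inner list kept 5 to 7 genes higher and the outer list 7 to 10 lower than prestin-positive cells under each alternative run. The outer count includes Slc26a5, which the rule fixed as lower in every run. The removal of cells rich in other markers was chosen after seeing the data. No paired analysis was possible because each group is 1 library. A gene with few UMIs in 75 cells has wide intervals, and sampling of cultures is not covered by any interval.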
